A study of Fragaria vesca with 24 samples.

Results

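‘NCGR1363’ is the freezing-susceptible parent of a woodland strawberry (Fragaria vesca) mapping family, and the data described here are the transcriptomes of its crowns before and after a long cold treatment. The libraries were chosen by their labels: 3 ‘NCGR1363’ crown libraries from untreated plants (0 h) and 3 from plants kept at 2 °C for 42 d, which makes 6 of the 24 RNASeq libraries of the series. The other libraries came from ‘NCGR1363’ leaves and from crowns and leaves of the freezing-tolerant parent ‘Alta’, at the same times and with 3 biological replicates in each group. All plants were clones raised from runners, potted for 5 weeks at 20 ± 2 °C under a long day. The cold treatment was the one used to acclimate plants for freezing tests, under a shorter day. The 42 d plants were also older than the 0 h plants, so temperature, day length and plant age cannot be told apart in any value below. Each genotype is a single clone, so the replicates measure the spread between plants of 1 genotype, and no library came from plants kept for 42 d without cold.

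The crown is the short stem of a strawberry plant, which bears the leaves, the roots and the apical meristems from which growth resumes after winter. Survival of the crown decides whether a frozen plant regrows. During cold acclimation, plants exposed to low but non-freezing temperature slow their growth, accumulate sugars and protective proteins such as dehydrins, change their membranes and cell walls, and adjust photosynthesis and the circadian clock. Dehydrins are hydrophilic proteins that protect membranes and enzymes when cells lose water to ice. Genes of these processes that lie in the freezing tolerance QTL interval on chromosome Fvb2 carried a description in the study's supplement, so named genes are given for that interval and other genes only by count or identifier.

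Accumulation is given as counts scaled to library size (CPM), with TMM factors over the 24 libraries. The total expected count per library was between 13791231 and 17309434 in ‘NCGR1363’ crowns and between 12818719 and 18487934 in the whole series. Pearson's r of log2(CPM + 0.1) across 20682 genes, which are not independent replicates, was 0.988 to 0.990 between the untreated crown libraries, 0.987 to 0.992 between those at 42 d, and 0.937 to 0.950 between the 2 times. Crowns and leaves of ‘NCGR1363’ had an r of 0.742 to 0.767 at 0 h and 0.756 to 0.816 at 42 d. The summed level of 5 leaf mesophyll markers was 28.5 to 30.7 CPM in crowns at 0 h and 33.7 to 38.8 CPM at 42 d, against 2419 to 2431 and 997 to 2075 CPM in leaves. The 6 crown libraries were in this respect as their labels state. Replicate 3 of the ‘Alta’ crowns at 42 d, as labelled, had an r of 0.974 to 0.984 with the untreated ‘Alta’ leaf libraries and of 0.710 to 0.728 with the other ‘Alta’ crown libraries at 42 d. It enters no comparison within ‘NCGR1363’, and comparisons with ‘Alta’ crowns are given with and without it. The ‘NCGR1363’ leaf libraries at 42 d had an r of 0.916 to 0.982 with one another.

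The first question was how far the crown transcriptome of the susceptible genotype changed in the cold. After 42 d at 2 °C, more than 1 in 2 of the genes that could be tested had moved, in near equal numbers up and down, and most of them by less than 2-fold. Of 34006 genes, 19108 reached 0.5 CPM in at least 2 of the 6 libraries and were tested with edgeR's quasi-likelihood F-test. At a Benjamini-Hochberg adjusted p (FDR) of at most 0.05 over these genes, 11264 genes (58.9%) differed between 42 d and 0 h, 5566 (29.1%) higher and 5698 (29.8%) lower at 42 d. The median log2 fold change was 0.66 among the genes that rose and -0.74 among those that fell, and 7681 of the calls (68.2%) were under 2-fold. A change of at least 2-fold was called for 1653 genes that rose (8.65%) and 1930 that fell (10.1%). At least 4-fold changes numbered 455 up and 480 down, at least 8-fold changes 145 and 182, and at least 32-fold changes 30 and 29. In a bulk sample, fewer cells of a type and less RNA per cell cannot be told apart, and CPM is relative to the other transcripts of the same library.

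The abundant part of the crown transcriptome took part in the response. Among 1770 genes with a mean of at least 100 CPM over the 6 libraries, 634 rose and 587 fell, of which 112 and 119 changed by at least 2-fold. Among the 37 genes at 1000 CPM or more, 16 rose and 13 fell, 8 and 6 of them by at least 2-fold. Over all genes tested, 29.1% rose and 29.8% fell, and 8.65% and 10.1% did so by at least 2-fold. Complete presence and absence was rare: 4 genes had no count in any untreated library and at least 1 CPM in every cold-treated one, and 4 showed the reverse. The genes called were spread evenly over the genome, with 57.8% to 60.0% of the tested genes of each of the 7 chromosomes called. The groups did not overlap, so that all 3 libraries of one time lay above all 3 of the other, in 6236 genes higher at 42 d and 6332 lower, 65.8% of the genes tested. When the dispersion was estimated together with the ‘NCGR1363’ leaf libraries, 7014 genes were called instead of 11264, and 2879 instead of 3583 at 2-fold or more. That setting adds the spread between leaf replicates, whose r was 0.916 to 0.982 at 42 d, against 0.987 to 0.992 between crown replicates. A call lost with it, as given for single genes below, need not reflect spread between crown libraries.

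**Figure D1:**
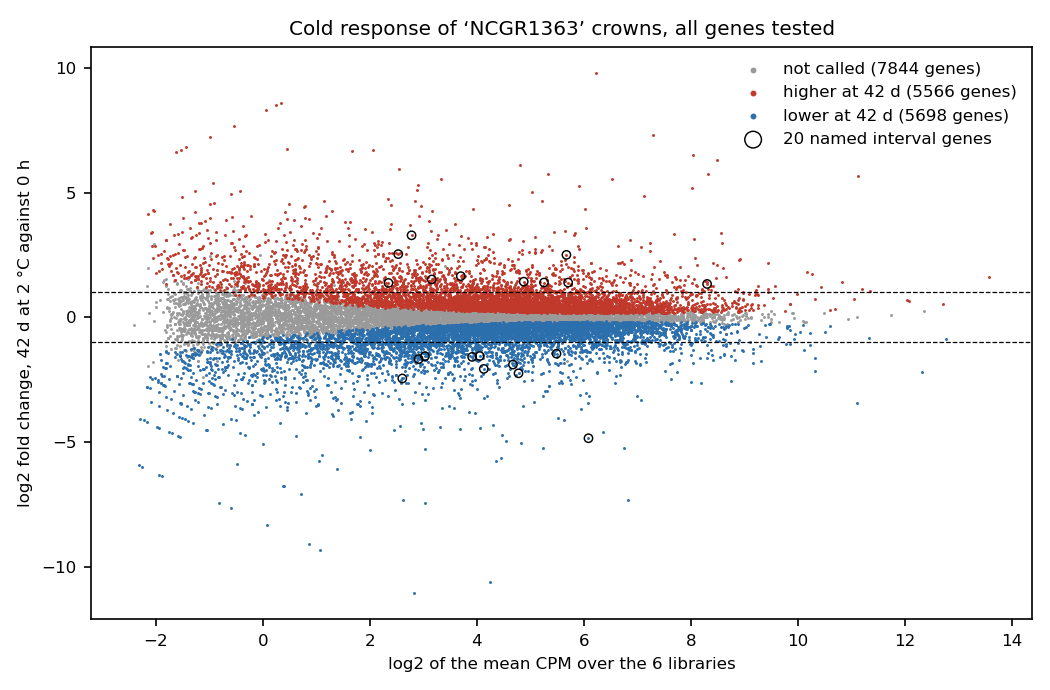
Log2 fold change of each of the 19108 tested genes in ‘NCGR1363’ crowns (42 d at 2 °C against 0 h) against the log2 of its mean CPM over the 6 libraries. Genes called at an FDR of at most 0.05 (5566 higher and 5698 lower) lie on both sides of 0 at all levels, and 7681 of them lie within 2-fold.

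Outside the interval the genes carried no description here, and the largest changes are given by identifier. FvH4_1g27000 was at 0, 0.437 and 0.056 CPM at 0 h and 166, 156 and 129 CPM at 42 d (log2 fold change 9.79 ± 0.30 (SE), FDR 1.3e-08), with 9 counts in the untreated libraries together. FvH4_7g29480 was at 1.72, 3.06 and 1.01 CPM at 0 h and 284, 381 and 268 CPM at 42 d (log2 fold change 7.32 ± 0.26 (SE), FDR 2.4e-08). Both genes were thus close to silent at 0 h and well accumulated in every library at 42 d. In the other direction, FvH4_1g07181 was at 302, 211 and 159 CPM at 0 h and 1.52, 0.546 and 1.98 CPM at 42 d (log2 fold change -7.31 ± 0.33 (SE), FDR 8.3e-08). FvH4_7g25530 held 59.7, 30.9 and 23.2 CPM at 0 h and a single count in the 3 libraries at 42 d (0, 0.061 and 0 CPM), for which no fold is given.

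Genes of the QTL interval were called about as often as those outside it. Of its 896 genes, 485 passed the filter on low values in ‘NCGR1363’ crowns, 367 of them among the 538 with a description. Transcript accumulation rose in 155 and fell in 138 of the 485 genes, 60.4% called against 58.9% of the 18623 tested genes outside the interval. At least 2-fold changes numbered 51 up and 43 down. The median log2 fold change of the interval genes was 0.05, and that of all genes tested was -0.0043.

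Among the described interval genes that rose most were genes of the cell wall, of chloroplast proteins and of defence. The largest rise was that of an endochitinase 2-like gene (FvH4_2g16190), which was at 1.2, 1.47 and 1.13 CPM at 0 h and 12.9, 16.1 and 8.44 CPM at 42 d (log2 fold change 3.29 ± 0.27 (SE), FDR 3.4e-06). Chitinases degrade chitin, and forms with antifreeze activity are known from the cold-acclimated leaves of winter rye. A pathogen-related protein-like gene (FvH4_2g14570) was at 2.91, 2.95 and 2.59 CPM at 0 h and 6.51, 9.15 and 6.46 CPM at 42 d (log2 fold change 1.38 ± 0.19 (SE), FDR 0.00012). The gene of expansin-like A2 (EXLA2, FvH4_2g16110), a relative of the expansins that loosen cell walls, was at 16.4, 15.8 and 13.7 CPM at 0 h and 96.1, 64.1 and 100.1 CPM at 42 d (log2 fold change 2.50 ± 0.16 (SE), FDR 7.4e-07). All 3 cold-treated libraries exceeded the highest untreated one by a wide margin for EXLA2, with the lowest at 64.1 CPM. EXORDIUM-like 5 (FvH4_2g16740), of a family linked to growth by cell expansion in Arabidopsis, rose from 15.9 ± 0.698 to 42.8 ± 9.24 CPM (mean ± SD, n = 3; log2 fold change 1.43 ± 0.14 (SE), FDR 1.5e-05).

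Transporters, a regulator and metabolic genes followed. The gene of the chloride channel CLC-e (FvH4_2g17250), which in Arabidopsis resides in the thylakoid membrane, was at 6.03, 6.93 and 5.86 CPM at 0 h and 19.6, 20.4 and 19.1 CPM at 42 d (log2 fold change 1.65 ± 0.11 (SE), FDR 8.2e-07), and its replicates differed little at either time. The trihelix transcription factor GT-2-like gene (FvH4_2g13840) was at 4.52, 5.07 and 4.23 CPM at 0 h and 12.7, 14.5 and 12.5 CPM at 42 d (log2 fold change 1.52 ± 0.13 (SE), FDR 4.6e-06). Trihelix factors bind light-responsive promoter elements. A type I inositol 1,4,5-trisphosphate 5-phosphatase 1 gene (FvH4_2g12960), whose product removes a phosphate from a second messenger of calcium release, rose from 28.8 ± 4.87 to 75.6 ± 1.26 CPM (mean ± SD, n = 3; log2 fold change 1.39 ± 0.11 (SE), FDR 2.6e-06). A basic blue protein gene (FvH4_2g15050), encoding a small copper protein of the plantacyanin type, was at 20.7, 19.9 and 22.5 CPM at 0 h and 49.9, 46 and 69.9 CPM at 42 d (log2 fold change 1.40 ± 0.14 (SE), FDR 1.7e-05), and this call was lost with the dispersion shared with leaves (FDR 0.26). The alcohol dehydrogenase gene FvH4_2g14760 (ADH), for the last enzyme of ethanolic fermentation, was at 222, 159 and 156 CPM at 0 h and 484, 393 and 479 CPM at 42 d (log2 fold change 1.34 ± 0.14 (SE), FDR 1.8e-05).

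The strongest fall in the interval was that of an acyl-[acyl-carrier-protein] gene (FvH4_2g14690), by name a gene of fatty acid metabolism in plastids. It was at 177, 109.8 and 107 CPM at 0 h and 5.69, 1.39 and 6.18 CPM at 42 d (log2 fold change -4.85 ± 0.35 (SE), FDR 1.5e-06), and the highest cold-treated library lay far below the lowest untreated one. A cytochrome b561 and DOMON domain protein gene (FvH4_2g18000), for a membrane protein that carries electrons, was at 11.9, 9.22 and 9.86 CPM at 0 h and 1.98, 1.33 and 2.26 CPM at 42 d (log2 fold change -2.45 ± 0.20 (SE), FDR 3.2e-06). The flavin-containing monooxygenase gene FMO GS-OX-like 9 (FvH4_2g15410) was at 45, 43.4 and 47.6 CPM at 0 h and 9.91, 8.97 and 9.76 CPM at 42 d (log2 fold change -2.24 ± 0.08 (SE), FDR 3.1e-08). Its Arabidopsis namesakes oxidise side chains of glucosinolates. The lysine histidine transporter-like 7 gene (FvH4_2g16052), of a family that imports amino acids, was at 33.6, 27.8 and 23.5 CPM at 0 h and 6.96, 5.52 and 7.64 CPM at 42 d (log2 fold change -2.07 ± 0.15 (SE), FDR 1.9e-06).

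Regulators and enzymes of small molecules made up most of the other large falls. The transcription factor gene bHLH62 (FvH4_2g18100) was at 42.1, 45.5 and 33.1 CPM at 0 h and 12, 10.6 and 9.9 CPM at 42 d (log2 fold change -1.89 ± 0.13 (SE), FDR 1.0e-06). Genes of the NAC family of plant transcription factors fell too: NAC 78-like (FvH4_2g13320) went from 24.8 ± 1.97 to 8.43 ± 1.04 CPM (mean ± SD, n = 3; log2 fold change -1.55 ± 0.11 (SE), FDR 1.7e-06) and NAC029 (FvH4_2g16180) from 12.2 ± 3.66 to 4.14 ± 0.164 CPM (log2 fold change -1.56 ± 0.21 (SE), FDR 0.00012). In Arabidopsis the NAC029 homolog NAP promotes leaf senescence. A dCTP pyrophosphatase 1-like gene (FvH4_2g17930), whose enzyme clears modified nucleotides, fell from 22.6 ± 0.775 to 7.52 ± 0.725 CPM (log2 fold change -1.59 ± 0.10 (SE), FDR 8.5e-07). Benzyl alcohol O-benzoyltransferase (FvH4_2g12510), which forms a scent ester, was at 67.5, 68.4 and 61.2 CPM at 0 h and 19.2, 32.6 and 20.5 CPM at 42 d (log2 fold change -1.46 ± 0.17 (SE), FDR 3.4e-05). A futsch-like microtubule-associated protein gene (FvH4_2g13370) was at 11.1, 12.1 and 11.4 CPM at 0 h and 4.22, 2.3 and 4.15 CPM at 42 d (log2 fold change -1.67 ± 0.19 (SE), FDR 3.7e-05), and its call was lost with the dispersion shared with leaves (FDR 0.16).

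**Figure D2:**
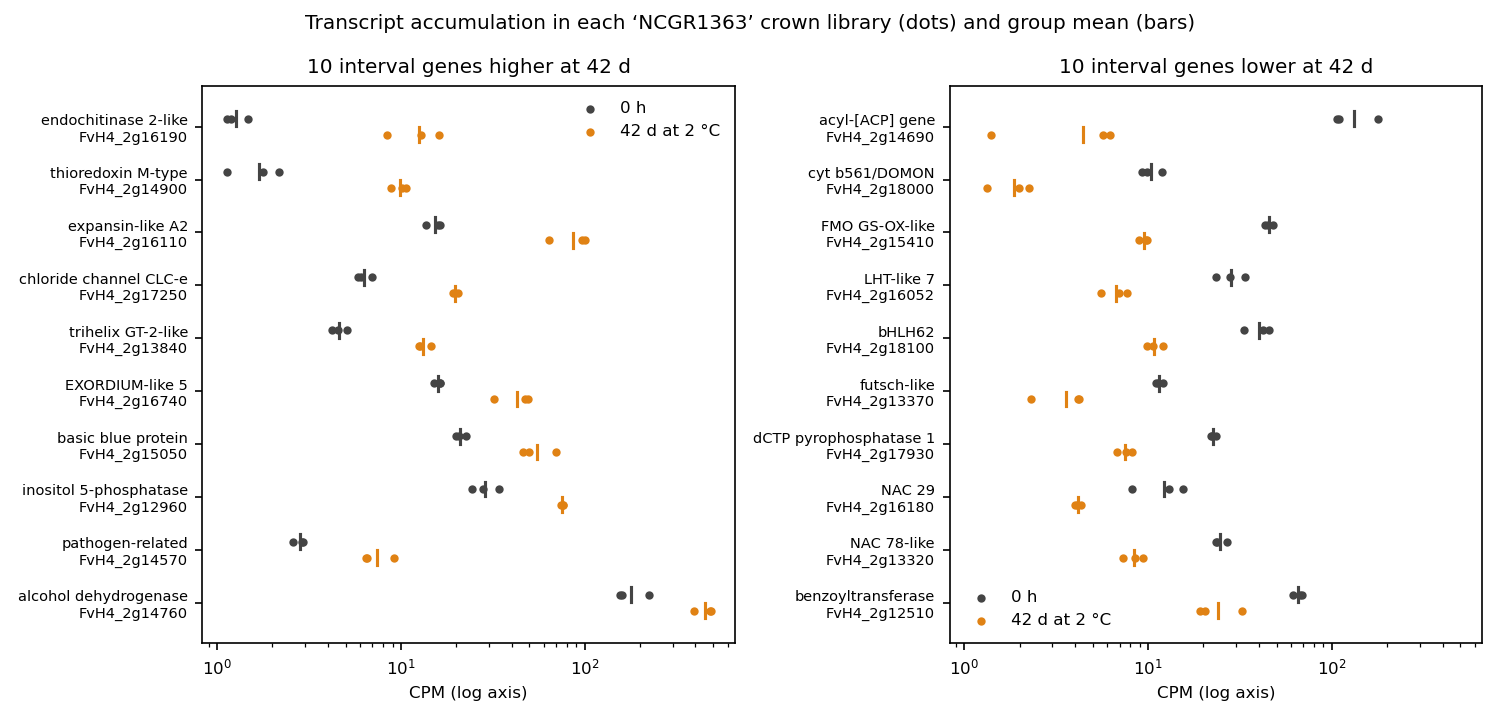
CPM (log axis) in each of the 3 untreated and 3 cold-treated ‘NCGR1363’ crown libraries for the 10 described interval genes that rose most and the 10 that fell most, each with groups that do not overlap and a mean of at least 5 CPM. The separation of the 2 times follows from this choice of genes. The shift runs from a log2 fold change of 3.29 for the endochitinase 2-like gene to -4.85 for the acyl-[acyl-carrier-protein] gene.

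The 14 interval genes that the study put forward as candidates for freezing tolerance were chosen partly on these libraries, so their counts are not independent evidence of a direction. Of the 13 tested in ‘NCGR1363’ crowns, 3 rose (23.1%, against 29.1% of all genes), 5 fell (38.5%, against 29.8%) and 5 were not called. Their median log2 fold change was -0.11. Besides EXLA2 and ADH, the SWEET1-like sugar transporter gene (FvH4_2g14860) rose and was at 2.96, 2.62 and 2.03 CPM at 0 h and 7.32, 5.7 and 8.21 CPM at 42 d (log2 fold change 1.48 ± 0.20 (SE), FDR 0.00011). SWEET proteins let sugars pass along their gradient in both directions. Alongside NAC029, ASMT (FvH4_2g15840), which the study names after the last enzyme of melatonin synthesis, fell and was at 3.27, 4.42 and 3.61 CPM at 0 h and 0.305, 0.364 and 0.33 CPM at 42 d (log2 fold change -3.48 ± 0.29 (SE), FDR 3.7e-06). All of its cold-treated libraries lay under 0.4 CPM and all of its untreated ones above 3 CPM. The hAT dimerization gene (FvH4_2g12511), of transposase origin, was at 4.11, 5.46 and 5.97 CPM at 0 h and 2.44, 2.42 and 1.84 CPM at 42 d (log2 fold change -1.21 ± 0.21 (SE), FDR 0.00065). DRP3A (FvH4_2g11510), a dynamin-related protein that divides mitochondria and peroxisomes, was at 116, 124 and 121 CPM at 0 h and 96.7, 80.0 and 91.7 CPM at 42 d (log2 fold change -0.42 ± 0.08 (SE), FDR 0.0011). The study lists DRP3A and PIP2-7 by isoform t3. For the cold response of ‘NCGR1363’ crowns alone it marks ADH-like as t2 and ADH as t1. The counts here are of whole genes. DRP3A t3 was at 0 in all 6 libraries, and t2 made up 95.6% to 97% of the gene. PIP2-7 t3 (FvH4_2g15440.t3) was at 2.18, 3.17 and 2.37 CPM at 0 h and 1.07, 2.3 and 2.17 CPM at 42 d and was not called (FDR 0.38).

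The second ADH homolog of the interval, ADH-like FvH4_2g14750, went the other way, at 1179, 962 and 880.5 CPM at 0 h and 871, 738 and 719.6 CPM at 42 d (log2 fold change -0.38 ± 0.12 (SE), FDR 0.021). The highest cold-treated library lay just under the lowest untreated one, and the call was lost when either of 2 libraries was left out or the dispersion was shared with leaves (FDR 0.20). Reads of the ADH pair, as of neighbouring laccases and quinone oxidoreductases, could be divided wrongly between like copies. It was -0.25 (FDR 0.11) without replicate 1 at 0 h and -0.32 (FDR 0.071) without replicate 3 at 42 d. The remaining candidates did not pass the test. BYPASS1-like (FvH4_2g13680), named for a root signal that arrests shoot growth in Arabidopsis, was at 21.8, 24.5 and 22.6 CPM at 0 h and 23.5, 23.5 and 20.2 CPM at 42 d (log2 fold change -0.04, FDR 0.76). For the aquaporin gene PIP2-7 (FvH4_2g15440), a plasma membrane water channel, the log2 fold change was -0.11 (FDR 0.22), for the ethylene pathway kinase CTR1 (FvH4_2g15800) -0.06 (FDR 0.70) and for the L-ascorbate oxidase homolog (FvH4_2g16000) -0.12 (FDR 0.75). AFP2-like (FvH4_2g18440), a repressor of abscisic acid responses, was at 1.92, 1.75 and 1.75 CPM at 0 h and 1.73, 3.09 and 3.4 CPM at 42 d (log2 fold change 0.60 ± 0.28 (SE), FDR 0.087), and it passed the test only without replicate 1 at 42 d, at 0.85 (FDR 0.012). RDUF2 (FvH4_2g16170) was not tested, with 0.052 CPM in 1 untreated library and no count in the other 5.

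The study's dehydrin section names 2 genes, and the interval holds a cold and drought-regulated CORA-like gene. FvH4_2g09610, named in that section only by its identifier, was at 0.156, 0.273 and 0.169 CPM at 0 h and 0.763, 0.849 and 1.42 CPM at 42 d and rose, with 11 counts in the untreated and 59 in the cold-treated libraries (log2 fold change 2.32 ± 0.46 (SE), FDR 0.0014). The same gene was at 13.5 ± 3.93 CPM (mean ± SD, n = 3) in untreated ‘Alta’ crowns. The COR47-like dehydrin gene (FvH4_2g16030) was not tested, with 0, 3.49 and 0.338 CPM at 0 h and no count at 42 d. The CORA-like gene (FvH4_2g18610) held no count in any of the 6 libraries.

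Of 33 genes of chloroplast proteins in the interval 27 were tested, and 14 rose (51.9%, against 29.1% of all genes), 6 fell (22.2%, against 29.8%) and 7 were not called, with a median log2 fold change of 0.28. The thioredoxin M-type gene (FvH4_2g14900), for a protein that carries reducing power from photosystem I to stromal enzymes, was at 1.77, 2.18 and 1.13 CPM at 0 h and 8.85, 10.7 and 10.1 CPM at 42 d (log2 fold change 2.53 ± 0.21 (SE), FDR 3.7e-06). Genes of the photosystem II-related psbP domain-containing protein 4 (FvH4_2g14791, log2 fold change 1.29, FDR 0.0084) and of EXECUTER 1 (FvH4_2g11660, 0.56, FDR 5.2e-05), which relays singlet oxygen signals in Arabidopsis, also rose. Zeaxanthin epoxidase (FvH4_2g15511), an enzyme of the xanthophyll cycle and of abscisic acid precursor supply, was at 21.7, 17.8 and 19.2 CPM at 0 h and 39.2, 47.1 and 38.1 CPM at 42 d (log2 fold change 1.08 ± 0.11 (SE), FDR 1.2e-05). Those that fell included the ATP synthase delta chain (FvH4_2g12490, -0.59, FDR 0.00059) and beta carbonic anhydrase 5 (FvH4_2g11680, -0.70, FDR 0.00034). The members thus did not move as one, and several of those that rose, such as the envelope transporters MITOFERRINLIKE 1 (FvH4_2g14300, 0.79) and BASS3 (FvH4_2g17730, 1.13), serve plastids of any kind. Of the 5 leaf mesophyll markers, 2 rose, 1 fell, 1 was not called and 1 was not tested, and their part in these values was not tested.

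Of 5 light, clock and flowering regulators tested, 4 rose, where 29.1% of all genes did, and cyclin-C1-2-like (FvH4_2g18390) was not called (log2 fold change -0.0021). GIGANTEA (FvH4_2g13030), a clock component that links day length to flowering, was at 264, 258 and 252 CPM at 0 h and 364, 356 and 333 CPM at 42 d (log2 fold change 0.44 ± 0.07 (SE), FDR 0.00036). FRIGIDA-like 3 (FvH4_2g17450), of a family that delays flowering before winter in Arabidopsis, was at 248, 258 and 242 CPM at 0 h and 362, 378 and 326 CPM at 42 d (log2 fold change 0.51 ± 0.08 (SE), FDR 0.00028). For both genes the replicates lay within narrow ranges and the times did not overlap. The transcriptional corepressor gene SEUSS (FvH4_2g14890) had a log2 fold change of 0.33 (FDR 0.0012). The blue-light receptor gene phototropin-2 (FvH4_2g17220), which drives chloroplast movement, had one of 0.54 (FDR 0.012). Its call was lost without replicate 1 at 0 h, at 0.48 (FDR 0.053), and with the dispersion shared with leaves (FDR 0.10). The hour of harvest is not given in the sources used here, and clock genes vary with the hour.

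Sugar metabolism genes rose in 3 of 6 tested and fell in 1, a share called near the 58.9% of all genes. Cytosolic fructose-1,6-bisphosphatase (FvH4_2g13890), an enzyme on the path to sucrose, was at 17.8, 18.9 and 19.9 CPM at 0 h and 43, 43 and 39.4 CPM at 42 d (log2 fold change 1.15 ± 0.08 (SE), FDR 1.3e-06). The gene of monosaccharide-sensing protein 2 (FvH4_2g16850), which loads glucose and fructose into the vacuole, was at 128, 122 and 112 CPM at 0 h and 234, 238 and 217 CPM at 42 d (log2 fold change 0.93 ± 0.08 (SE), FDR 3.3e-06). Together with SWEET1-like these were the members that rose. Alpha-galactosidase 1-like (FvH4_2g12370), which splits raffinose-type sugars that plants store in the cold, fell and was at 88.6, 84.3 and 82.4 CPM at 0 h and 41.5, 33 and 37.7 CPM at 42 d (log2 fold change -1.18 ± 0.09 (SE), FDR 1.8e-06). Chloroplastic fructose-1,6-bisphosphatase (FvH4_2g11590, log2 fold change 0.28, FDR 0.053) and isocitrate dehydrogenase (FvH4_2g16520, -0.16, FDR 0.084) did not pass the test.

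Of 16 cell wall genes tested 7 rose and 7 fell (43.8% each, against 29.1% and 29.8% of all genes) and 2 were not called. An extensin-3-like gene (FvH4_2g14220), for a structural glycoprotein of the wall, was at 5723, 5870 and 4665 CPM at 0 h and 8264, 8690 and 6871 CPM at 42 d (log2 fold change 0.55 ± 0.14 (SE), FDR 0.0058). Glucan endo-1,3-beta-glucosidase A6 (FvH4_2g18200), of an enzyme family that cuts callose, was at 58.9, 61.7 and 60.5 CPM at 0 h and 147, 87.8 and 143 CPM at 42 d (log2 fold change 1.07 ± 0.16 (SE), FDR 0.00024), and its call was lost with the dispersion shared with leaves (FDR 0.13). With EXLA2 and EXORDIUM-like 5 these were the members of largest level or change that rose. Genes of wall polymer synthesis were among those that fell, with cellulose synthase A catalytic subunit 2 (FvH4_2g13380) at a log2 fold change of -0.34 (FDR 0.041), galacturonosyltransferase 8 (FvH4_2g18470) at -0.35 (FDR 0.0013) and the glycine-rich wall protein 1 gene (FvH4_2g18220) at -1.99 (FDR 0.00069).

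Among laccases, other copper oxidases and the basic blue protein gene, 6 of 9 tested did not pass the test, where 58.9% of all genes were called. The basic blue protein gene was the 1 that rose, and 2 genes fell. Laccases polymerise lignin, and other copper oxidases act on ascorbate and phenols. Laccase-15-like (FvH4_2g12610) was at 301, 245 and 277 CPM at 0 h and 277, 127 and 229 CPM at 42 d (log2 fold change -0.38, FDR 0.16). Its replicate 2 at 42 d lay apart from the others, and a laccase-9 gene (FvH4_2g12820) had its lowest value in the same library, at 5.87, 4.26 and 6.99 CPM at 0 h and 2.85, 0.788 and 4.67 CPM at 42 d (log2 fold change -1.003, FDR 0.060). The monocopper oxidase-like gene SKU5 (FvH4_2g17700), tied to directional root growth in Arabidopsis, was at 16.4, 16.2 and 17.3 CPM at 0 h and 9.66, 7.03 and 10.3 CPM at 42 d (log2 fold change -0.88 ± 0.14 (SE), FDR 0.00029). Xylem cysteine proteinase 1 (FvH4_2g16940), which takes part in the death of vessel cells, was at 322, 299 and 315 CPM at 0 h and 245, 249 and 236 CPM at 42 d (log2 fold change -0.36 ± 0.07 (SE), FDR 0.0013). Both calls were lost with the dispersion shared with leaves (FDR 0.21 and 0.67). The summed level of 6 xylem markers was 551 to 632 CPM at 0 h and 379 to 526 CPM at 42 d, and the part of xylem cell number in these values was not tested.

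Of 12 cell division genes only 4 were tested, and 3 of these fell, where 29.8% of all genes did. The G2/mitotic-specific cyclin-2-like gene (FvH4_2g16590) was at 16.4, 17.6 and 16.8 CPM at 0 h and 9.86, 4.79 and 9.57 CPM at 42 d (log2 fold change -1.05 ± 0.21 (SE), FDR 0.0014), although its call was lost with the dispersion shared with leaves (FDR 0.40). HAUS augmin-like complex subunit 3 (FvH4_2g17860), which nucleates spindle microtubules, was at 49.3, 49.7 and 46.8 CPM at 0 h and 34.3, 35 and 36.7 CPM at 42 d (log2 fold change -0.46 ± 0.07 (SE), FDR 0.00023). A kinesin-4-like gene (FvH4_2g14960) had a log2 fold change of -1.59 (FDR 0.0060), at a low level with a mean under 1 CPM over the 6 libraries. Cell division control protein 45 (FvH4_2g18640), a replication factor, had a log2 fold change of -0.50 (FDR 0.13) and did not pass. Aurora-1 held no count in any of the 6 libraries. The summed level of the 4 markers of dividing cells was 16.6 to 17.8 CPM at 0 h and 4.97 to 10.3 CPM at 42 d. Nearly all of this sum was the cyclin-2-like gene above, the only marker tested, so it adds no further sign of a fall.

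Genes of ribosome assembly rose, while genes of the ribosomal proteins themselves mostly did not pass the test. All 8 assembly genes were tested, 7 rose (87.5%, against 29.1% of all genes) and 1 fell, with a median log2 fold change of 0.48. Nucleolar complex protein 4 (FvH4_2g16780) was at 15.9, 16.3 and 16.1 CPM at 0 h and 35.4, 28.3 and 35.4 CPM at 42 d (log2 fold change 1.04 ± 0.10 (SE), FDR 1.1e-05), and the ribosome maturation gene SBDS (FvH4_2g15010), which frees the large subunit for translation, at 57.1, 61.7 and 58.2 CPM at 0 h and 95.3, 83.1 and 91.8 CPM at 42 d (log2 fold change 0.61 ± 0.07 (SE), FDR 5.1e-05). The DEAD-box RNA helicase 29 gene (FvH4_2g15160) was at 46, 51.2 and 53.1 CPM at 0 h and 86, 99.96 and 91.5 CPM at 42 d (log2 fold change 0.88 ± 0.08 (SE), FDR 9.6e-06). The 2 times did not overlap in these genes, which were named for their large changes. Nor did they overlap in 65.8% of all genes tested. The one that fell, an RNA polymerase I subunit rpa49-like gene (FvH4_2g14600), was at 1.98, 1.85 and 2.54 CPM at 0 h and 0.61, 0.909 and 1.51 CPM at 42 d (log2 fold change -1.05 ± 0.33 (SE), FDR 0.020), and lost its call without replicate 3 at 0 h, at -0.90 (FDR 0.067), and without replicate 1 at 42 d, at -0.78 (FDR 0.074). Of 5 cytosolic ribosomal protein genes 4 were not called, and the fifth, S10-1-like (FvH4_2g15610), had a log2 fold change of 0.17 (FDR 0.033) that was lost in 5 of 6 fits with a library left out (FDR 0.037 to 0.12). Glutamate-tRNA ligase (FvH4_2g14910) rose, at 0.41 (FDR 0.0011), and alanine-tRNA ligase (FvH4_2g16070, -0.26, FDR 0.24) and asparagine-tRNA ligase (FvH4_2g17960, -0.31, FDR 0.12) did not pass.

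Of 12 RNA processing genes tested 7 rose (58.3%, against 29.1% of all genes), 1 fell (8.33%, against 29.8%) and 4 were not called. DEAD-box helicase 39 (FvH4_2g12870) was at 20.2, 21.8 and 19.2 CPM at 0 h and 35.8, 37.5 and 35.6 CPM at 42 d (log2 fold change 0.83 ± 0.08 (SE), FDR 8.8e-06) and RNA-binding protein 39 (FvH4_2g15540) at 76.1, 68.4 and 74.5 CPM at 0 h and 99.1, 104 and 104 CPM at 42 d (log2 fold change 0.49 ± 0.07 (SE), FDR 0.00014). DEAD-box helicases unwind RNA, whose structures become more stable in the cold. Splicing factor syf2 (FvH4_2g15441) was the one that fell, with a log2 fold change of -0.42 (FDR 0.00020). Among chaperones and peptidyl-prolyl isomerases 4 of 9 rose (44.4%) and 2 fell (22.2%). The dnaJ 1 gene (FvH4_2g18630) was at 8.63, 10.3 and 10.8 CPM at 0 h and 15.8, 21.6 and 18.2 CPM at 42 d (log2 fold change 0.90 ± 0.14 (SE), FDR 0.00027). Chaperone dnaJ 10 (FvH4_2g15170) had a log2 fold change of 0.97 (FDR 0.0012), which was lost with the dispersion shared with leaves (FDR 0.070). The 2 heat shock protein 83 genes held no count.

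Hormone genes were few. In the abscisic acid list, zeaxanthin epoxidase rose and 3 genes were not called. Protein phosphatase 2C 46 (FvH4_2g15570) fell. Only some members of its family block abscisic acid signalling, and whether this one does was not tested. The phosphatase was at 121, 123 and 119 CPM at 0 h and 95, 109 and 106 CPM at 42 d (log2 fold change -0.23 ± 0.07 (SE), FDR 0.017), and its call was lost without replicate 2 at 0 h, at -0.22 (FDR 0.058), and without replicate 1 at 42 d, at -0.16 (FDR 0.065). No gene of 3 tested in the ethylene list was called, and the ABR1-like factor (FvH4_2g13240) was at 0.416, 0.546 and 1.01 CPM at 0 h and 1.12, 2.36 and 0.755 CPM at 42 d (log2 fold change 1.07, FDR 0.085). The single testable auxin synthesis gene, tryptophan aminotransferase-related 4 (FvH4_2g13010), fell and was at 6.24, 8.13 and 7.16 CPM at 0 h and 2.75, 3.94 and 3.35 CPM at 42 d (log2 fold change -1.11 ± 0.18 (SE), FDR 0.00040).

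Metabolic families split within themselves. Among the HMG-CoA reductase genes, which make the precursor of sterols and other isoprenoids and have neighbouring identifiers in the interval, FvH4_2g17090 rose, at 15, 22.8 and 17 CPM at 0 h and 43.9, 68.8 and 25 CPM at 42 d (log2 fold change 1.32 ± 0.30 (SE), FDR 0.0034), while FvH4_2g17100 fell, at 53.6, 56 and 38.5 CPM at 0 h and 26.1, 24.2 and 18.5 CPM at 42 d (log2 fold change -1.11 ± 0.15 (SE), FDR 0.00014). These copies are near neighbours with like names, and reads could be divided between them wrongly. Another copy, FvH4_2g17060, was at 4.83, 3.98 and 6.71 CPM at 0 h and 3, 3.52 and 2.83 CPM at 42 d (log2 fold change -0.74 ± 0.22 (SE), FDR 0.014), and its call was lost without replicate 3 at 0 h, at -0.51 (FDR 0.065), and with the dispersion shared with leaves (FDR 0.25). In lipid metabolism 2 of 12 tested rose (16.7%, against 29.1% of all genes), 3 fell (25.0%, against 29.8%) and 7 were not called. Of those that rose, FvH4_2g13710 lost its call in 5 of 6 fits with a library left out. Besides the acyl-[acyl-carrier-protein] gene, the peroxisomal acyl-activating enzyme 1 (FvH4_2g13610, log2 fold change -0.80, FDR 5.4e-05) and the mitochondrial acyl-coenzyme A thioesterase 9 (FvH4_2g17370, -0.62, FDR 6.2e-05) fell. Of 6 tested flavin monooxygenases and cytochrome P450s 3 rose (50.0%) and 2 fell (33.3%), against 29.1% and 29.8% of all genes. Of those that rose, only FvH4_2g16450 had a mean of at least 1 CPM. Its call was lost in 3 of 6 fits with a library left out. P450 87A3-like (FvH4_2g16500) had a log2 fold change of -0.78 (FDR 0.0023, and 0.32 with the shared dispersion).

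Of 9 metal and ion transporter genes 6 were tested, and 3 rose and 3 fell, where 58.9% of all genes were called. The vacuolar iron transporter homolog 2-like gene (FvH4_2g13960), which stores iron in the vacuole, was at 183, 185 and 181 CPM at 0 h and 68.7, 98.2 and 69.9 CPM at 42 d (log2 fold change -1.22 ± 0.12 (SE), FDR 1.5e-05). MITOFERRINLIKE 1, which brings iron into plastids, went from 17.4 ± 1.09 to 30.1 ± 2.27 CPM (mean ± SD, n = 3; FDR 4.0e-05). The ORG2-like factor (FvH4_2g11650), whose Arabidopsis homolog switches on iron uptake, was at 3.07, 2.84 and 2.99 CPM at 0 h and 0.153, 0 and 0.141 CPM at 42 d (log2 fold change -4.75 ± 0.44 (SE), FDR 9.0e-06), with 164 counts at 0 h and 6 at 42 d. The 3 genes tied to iron were thus 2 lower and 1 higher. Potassium transporter 7 (FvH4_2g11940) fell, at -0.49 (FDR 0.00062). Of 4 tested amino acid transporter genes 2 fell and 2 were not called, and proton-coupled amino acid transporter 3 (FvH4_2g16760) was at -0.66 (FDR 0.0017; 0.091 with the shared dispersion).

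Transcription factor genes fell more often than rose, with 9 of 18 tested lower (50.0%, against 29.8% of all genes), 4 higher (22.2%) and 5 not called, and a median log2 fold change of -0.39. Both IBH1-like genes, whose Arabidopsis namesake inhibits cell elongation, were lower, FvH4_2g17750 at 2.29, 2.46 and 1.75 CPM at 0 h and 0.153, 0.242 and 0.236 CPM at 42 d (log2 fold change -3.33 ± 0.36 (SE), FDR 2.2e-05) and FvH4_2g17760 at a log2 fold change of -1.11 (FDR 0.0023). Both NAC 78-like genes were lower too, the second (FvH4_2g13330) at -0.48 (FDR 0.00012), whereas NAC 86-like (FvH4_2g12690) was at -0.03 (FDR 0.73). Those that rose were both trihelix GT-2 genes, with FvH4_2g13850 at 0.47 (FDR 0.0028), GATA 24-like (FvH4_2g11520) at 0.57 (FDR 0.00012) and scarecrow-like 1 (FvH4_2g15030) at 0.82 (FDR 9.1e-06).

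The kinase and receptor list and the disease resistance list held 9 tested genes each, too few to set their calls apart from the 58.9% called over all genes. Of 9 kinase and receptor genes 3 rose and 1 fell. The glutamate receptor 3.2-like gene (FvH4_2g16810), for a calcium-permeable channel, was at 41.4, 37.9 and 35.3 CPM at 0 h and 64.1, 75.8 and 71.7 CPM at 42 d (log2 fold change 0.88 ± 0.09 (SE), FDR 1.2e-05). HT1-like (FvH4_2g14210), a kinase known from stomatal responses to carbon dioxide, was at 0.43 (FDR 0.0011), and calcium-dependent protein kinase 26 (FvH4_2g16880) at -0.51 (FDR 7.1e-05). Of 9 disease resistance genes 2 rose and 2 fell (22.2% each, against 29.1% and 29.8% of all genes). Both that fell, FvH4_2g14040 and FvH4_2g14320, lost their call in 5 of 6 fits with a library left out. Pentatricopeptide repeat proteins edit and stabilise organelle RNA, and of 14 such genes 2 rose (14.3%) and 1 fell (7.14%). Of 8 ubiquitin ligase and proteasome genes 2 rose and 2 fell (25.0% each). The pentatricopeptide repeat gene that fell (FvH4_2g11810) and the ubiquitin list gene FvH4_2g14260, which rose, lost their call in 4 of 6 such fits. In the ubiquitin list the RNF4 ligase (FvH4_2g18620) was at -0.60 (FDR 0.00016). An oleosin-B4-like gene (FvH4_2g13410), for a coat protein of oil bodies, was the single testable gene of the reproductive list and fell, at 115, 99.6 and 113 CPM at 0 h and 39.2, 54.9 and 42 CPM at 42 d (log2 fold change -1.27 ± 0.12 (SE), FDR 9.0e-06), and the 3 egg cell-secreted genes were at 0 in all 6 libraries. Markers of the stomatal lineage and phloem were at or under 0.613 CPM in sum.

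**Figure D3:**
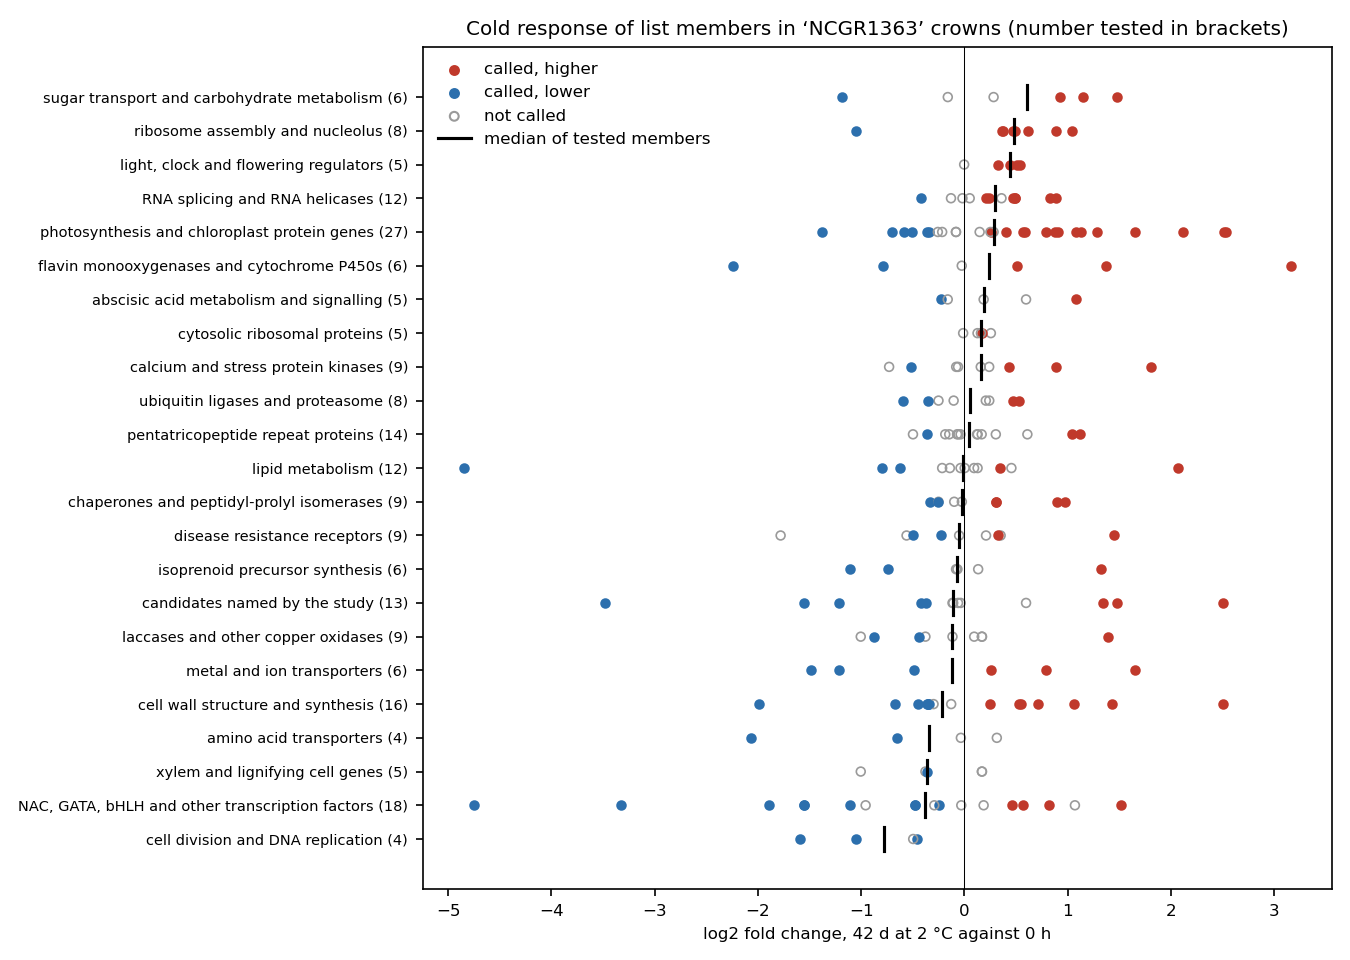
Log2 fold change (42 d at 2 °C against 0 h) of every tested member of the gene lists with 4 or more tested in ‘NCGR1363’ crowns, one row per list with the number tested in brackets, filled where called, and the median of the row as a bar. The ribosome assembly row lies right of 0 but for 1 gene, the transcription factor row has its median at -0.39, and the pentatricopeptide repeat row holds 11 genes that were not called.

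How the crown response differed from that of leaves of the same genotype was tested as an interaction of tissue and cold over 12 libraries. A positive value means a change further upward in crowns. It was called for 4144 of 19910 genes (20.8%), 2086 higher and 2058 lower in crowns. Of 17697 genes tested in both tissues, 3855 were called in both, 36.6% of the crown calls and 69.7% of the leaf calls, with 3415 in the same direction and 440 opposite. Without ‘NCGR1363’ leaf 42 d replicate 2, 6737 genes were called for the interaction.

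ADH rose in both tissues but from very different levels. In leaves it was at 4.22, 4.74 and 3.12 CPM at 0 h and 58.5, 78.3 and 54 CPM at 42 d, so that the crown level before cold exceeded the leaf level after it. The rise was smaller in crowns by a log2 interaction of -2.63 ± 0.28 (SE), FDR 0.00024. AFP2-like went from 0.441, 0.395 and 0.433 CPM to 1.57, 8.03 and 4.82 CPM in leaves (log2 interaction -2.86 ± 0.72 (SE), FDR 0.018). Extensin-3-like rose in crowns and fell in leaves, from 2059, 2276 and 2068 CPM to 1158, 1054 and 1198 CPM (log2 interaction 1.45 ± 0.26 (SE), FDR 0.0031). The 3 libraries of one time did not overlap with those of the other in either tissue for this gene.

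The thioredoxin M-type gene rose in crowns from a low level, while leaves held 797, 1128 and 1049 CPM at 0 h and 533, 1087 and 661 CPM at 42 d (log2 interaction 2.92 ± 0.39 (SE), FDR 0.00074). The GT-2-like gene was at 75.7, 87.3 and 82.3 CPM and 101, 103 and 107 CPM in leaves (1.17 ± 0.14 (SE), FDR 0.00042). Both genes remained far below the leaf level in cold-treated crowns. The kinase gene OXI1 (FvH4_2g18040), which responds to oxidative stress in Arabidopsis, went from 26.2, 16 and 18.8 CPM to 9.94, 8.7 and 11.6 CPM in leaves, against 4.52, 3.98 and 5.47 CPM at 0 h and 5.69, 5.58 and 5.24 CPM at 42 d in crowns (1.24 ± 0.29 (SE), FDR 0.013). IBH1-like FvH4_2g17750 (-4.35 ± 1.17 (SE), FDR 0.024) and the pentatricopeptide repeat gene FvH4_2g15270 (-1.56 ± 0.43 (SE), FDR 0.027) had called interactions too, but without leaf 42 d replicate 2 that of IBH1-like was -2.51 (FDR 0.052). With a library left out, the call of IBH1-like was lost in 6 of 12 fits, with crown or leaf libraries, and that of FvH4_2g15270 in 7 of 12.

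The contrast with crowns of the tolerant parent was tested as an interaction of genotype and cold, the response of ‘NCGR1363’ minus that of ‘Alta’. It was called for 1281 of 19991 genes (6.41%), 953 higher and 328 lower in ‘NCGR1363’. When replicate 3 of cold-treated ‘Alta’ crowns was left out it was called for 7148 of 19888 genes (35.9%), 4177 higher and 2971 lower. Of 18262 genes tested in both genotypes without that library, 7466 were called for cold in both, 68.4% of the ‘NCGR1363’ calls and 70.7% of the ‘Alta’ calls, with 6803 in the same direction and 663 opposite. With it the genes called in both numbered 1078, 996 of them in the same direction.

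In several genes ‘NCGR1363’ crowns changed less than ‘Alta’ crowns, or the other way. HMG-CoA reductase FvH4_2g17060 was at 311, 333 and 343 CPM at 0 h and 2.56, 3.2 and 5.81 CPM at 42 d in ‘Alta’ crowns, where it fell from a far higher start (log2 interaction 5.70 ± 0.43 (SE), FDR 8.2e-05; 6.10 without replicate 3). BYPASS1-like, which was not called in ‘NCGR1363’ crowns, was at 143 ± 10.4 CPM (mean ± SD, n = 3) at 0 h and 19, 19.1 and 20.0 CPM at 42 d in ‘Alta’ crowns, with an interaction of 2.85 ± 0.15 (SE), FDR 1.8e-05 (2.89 without it). The basic blue protein gene rose in ‘NCGR1363’ crowns and was at 25.7, 22.4 and 18.7 CPM at 0 h and 10.4, 3.31 and 1.52 CPM at 42 d in ‘Alta’ crowns (3.53 ± 0.74 (SE), FDR 0.021; 3.14 without it). The hAT gene and ASMT held 1.24, 1.44 and 1.54 CPM and 8.8, 9.76 and 9.23 CPM in untreated ‘Alta’ crowns and no count in any of the 3 libraries at 42 d. Replicate 3 is among these, so their absence from cold-treated ‘Alta’ crowns rests on replicates 1 and 2. The fitted interactions of hAT and ASMT, 6.42 ± 0.62 (SE), FDR 0.0011 and 6.87 ± 0.53 (SE), FDR 0.00039, depend on the prior count and are no bound. With one library left out they ran from 6.27 to 6.53 and from 6.77 to 6.99. Both genes stayed above 0 in every cold-treated ‘NCGR1363’ library. For NAC029 the interaction lay above 0 as well (1.48 ± 0.34 (SE), FDR 0.029; 1.41 without that library).

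For other genes the interaction lay below 0. SWEET1-like was at 6.64, 8.27 and 7.16 CPM at 0 h and 68, 67 and 57.2 CPM at 42 d in ‘Alta’, so that the untreated ‘Alta’ libraries lay in or just above the range of the cold-treated ‘NCGR1363’ libraries (-1.64 ± 0.26 (SE), FDR 0.0056; -1.70 without replicate 3). EXECUTER 1 was at 46.7, 47.9 and 49.2 CPM and 109.8, 150.1 and 166 CPM (-0.996 ± 0.20 (SE), FDR 0.016; -0.86 without it). Beta carbonic anhydrase 5 (-1.60 ± 0.37 (SE), FDR 0.033; -1.16 without it) and the quinone oxidoreductase homolog FvH4_2g18320 (-1.74 ± 0.34 (SE), FDR 0.016; -1.36 without it) fell in ‘NCGR1363’ crowns, and their ‘Alta’ libraries were all higher at 42 d than at 0 h, highest in replicate 3. For ADH the ‘Alta’ crowns were at 86.9, 66.3 and 59 CPM at 0 h and 1963, 949 and 7.72 CPM at 42 d, the last value being the library that stands apart. Its interaction was -2.43 ± 1.57 (SE), FDR 0.39, and -3.005 (FDR 9.0e-05) without that library. With one library left out, the calls of beta carbonic anhydrase 5, the basic blue protein gene, NAC029, EXECUTER 1 and FvH4_2g18320 were lost in 9, 6, 6, 2 and 1 of 12 fits. AFP2-like likewise went from -2.98 ± 1.48 (SE), FDR 0.27 to -3.54 (FDR 0.00057).

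**Figure D4:**
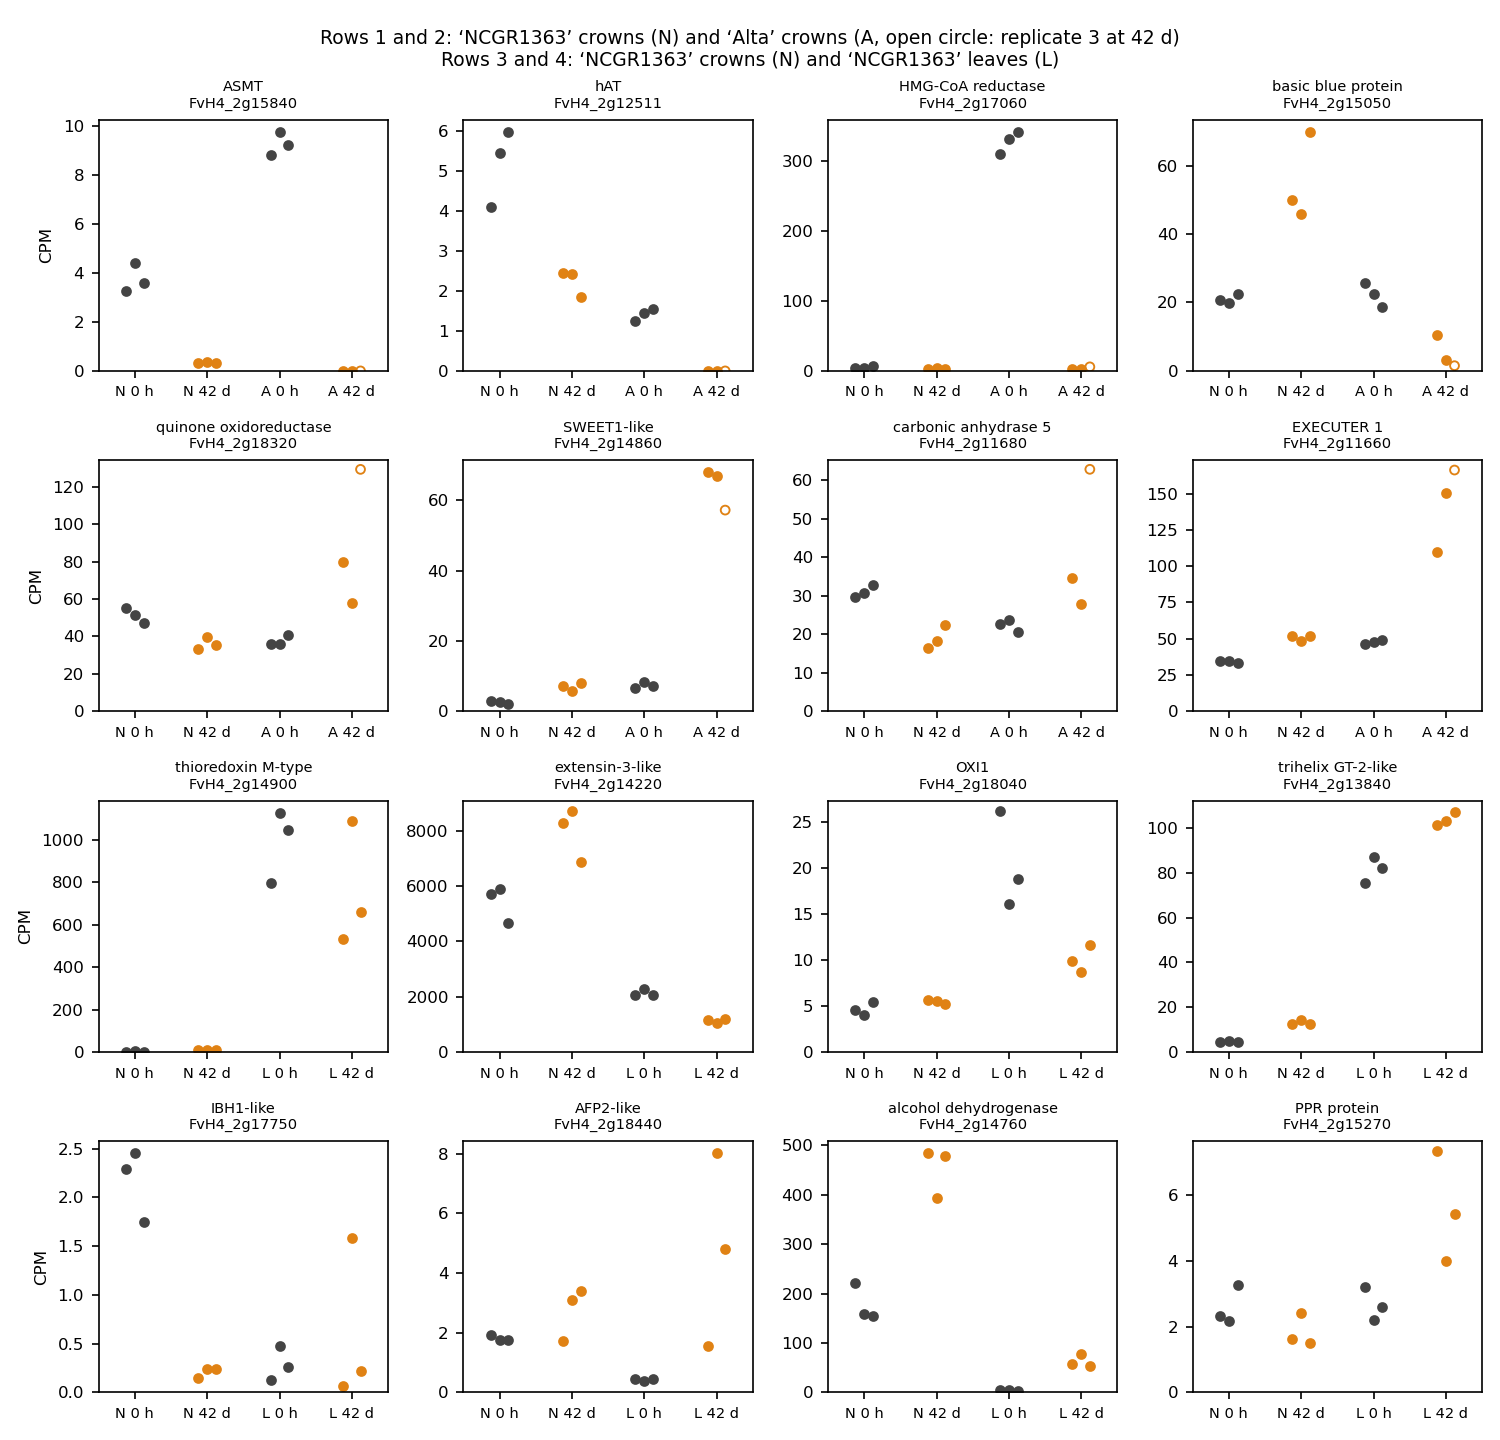
CPM in each library for 16 list members with the largest called interactions, in ‘NCGR1363’ crowns (N) beside ‘Alta’ crowns (A, upper 2 rows, the library labelled replicate 3 at 42 d as an open circle) or beside ‘NCGR1363’ leaves (L, lower 2 rows). HMG-CoA reductase FvH4_2g17060 falls from 311 to 343 CPM in ‘Alta’ and lies between 2.83 and 6.71 CPM in ‘NCGR1363’, and thioredoxin M-type lies at 8.85 to 10.7 CPM in cold-treated crowns beside 533 CPM or more in every leaf library.

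The isoform table gave a second readout of the same 6 libraries. RSEM divides reads shared by isoforms between them by estimation, so an isoform value carries that step's error as well. Of 38081 isoforms tested, 10162 (26.7%) were called, 4850 higher and 5312 lower. In 458 genes, 16 of them in the interval, isoforms were called in both directions. An isoform was called in 686 genes that were not called as a whole, while 3532 called genes had no isoform called.

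GIGANTEA's rise was called in 2 of its minor isoforms. Its t1 was at 12.1, 9.66 and 8.4 CPM at 0 h and 48.9, 58.7 and 43.3 CPM at 42 d (log2 fold change 2.27 ± 0.17 (SE), FDR 0.00053), and its share of the gene went from 3.88% to 14.3%. Its t4 rose as well, from 8.75% to 14.1% of the gene (log2 fold change 1.08 ± 0.11 (SE), FDR 0.0012), and t2 and t3 were not called. For EXLA2 both isoforms rose, t1 by a log2 fold change of 2.27 (FDR 0.00053) and t2 by 2.88 (FDR 0.0010). ADH was nearly all t1, at 96.9% to 99.5%. Its minor t2 had a log2 fold change of -1.29 (FDR 0.039) that was lost in 5 of 6 fits with a library left out. In ADH-like FvH4_2g14750 the minor t2 rose, from 0.138% to 0.573% of the gene (log2 fold change 1.63 ± 0.24 (SE), FDR 0.0047), against the fall of the gene. The value that the study marks as t2 in these crowns is a fall, the direction of the whole gene here.

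The following genes were picked after their values were seen, as clear cases of isoforms called in both directions. In calcium-dependent protein kinase 26, t3 was at 104, 104 and 97.3 CPM at 0 h and 57.8, 49 and 52.9 CPM at 42 d (log2 fold change -0.98 ± 0.08 (SE), FDR 0.00066) and t4 at 11.7, 13.6 and 11.1 CPM at 0 h and 20.7, 23.2 and 26.7 CPM at 42 d (log2 fold change 0.90 ± 0.13 (SE), FDR 0.0043). The fall of this gene thus lay in t3, whose share went from 87.6% to 65.4%. In carboxypeptidase D (FvH4_2g13020), which trims peptides, t2 was at 41.5, 37.6 and 42.8 CPM at 0 h and 11.7, 7.03 and 10.3 CPM at 42 d (log2 fold change -2.11 ± 0.19 (SE), FDR 0.00086), and t1 went from 13% to 62.6% of the gene (log2 fold change 1.34 ± 0.35 (SE), FDR 0.034). The major isoform at 42 d was thus another than at 0 h. The call of t1 was lost in 4 of 6 fits with a library left out. The coiled-coil domain gene CCDC124 (FvH4_2g15950) held near equal shares of t2 and t3 at 0 h, and t3 went from 47.6% to 80.5% (log2 fold change 0.90 ± 0.12 (SE), FDR 0.0035) as t2 fell (log2 fold change -1.66 ± 0.13 (SE), FDR 0.00060). DDB1- and CUL4-associated factor 8 (FvH4_2g15750), a substrate receptor of a ubiquitin ligase, moved from t2 (50.2% to 23.4%, log2 fold change -1.02 ± 0.14 (SE), FDR 0.0038) to t1 (39.6% to 66.5%, log2 fold change 0.83 ± 0.08 (SE), FDR 0.0012). The dicarboxylate transporter 2.1 gene (FvH4_2g11840), not called as a whole (log2 fold change -0.08, FDR 0.45), held 20.1% to 52.5% as t1 (log2 fold change 1.23 ± 0.20 (SE), FDR 0.0060), and the call of its t2 was lost in 4 of 6 fits with a library left out.

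**Figure D5:**
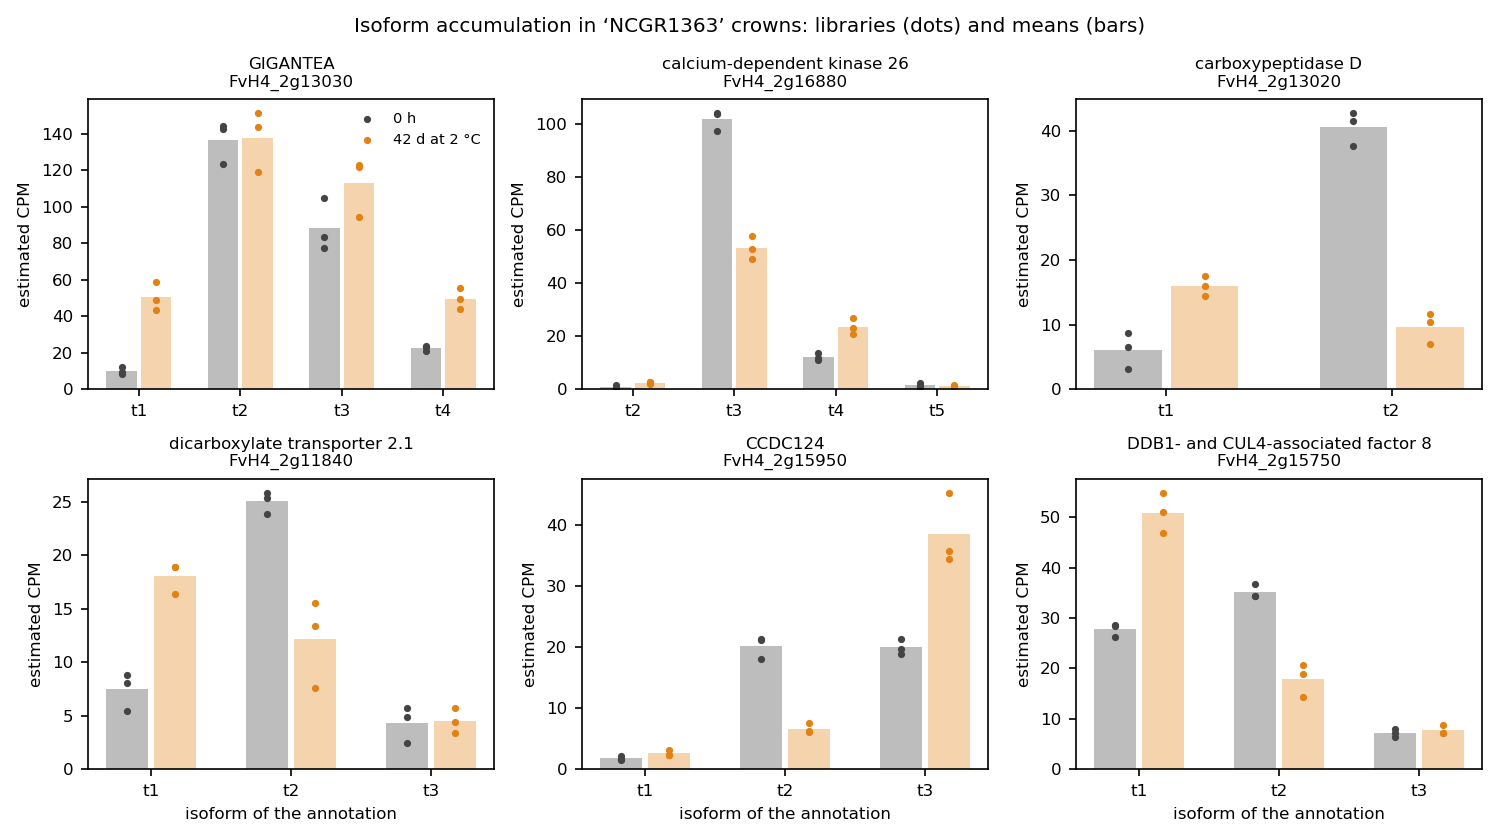
Estimated CPM of the isoforms with a mean of at least 1 CPM in ‘NCGR1363’ crowns for 6 interval genes, as means (bars) and single libraries (dots) at 0 h and after 42 d at 2 °C. In all 6 genes at least 1 isoform was called higher at 42 d, and in carboxypeptidase D the share of t1 goes from 13% to 62.6%.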

How the data were processed

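Crowns of ‘NCGR1363’ were compared between 0 h (3 libraries) and 42 d at 2 °C (3 libraries), with the ‘NCGR1363’ leaf and ‘Alta’ crown libraries for the interactions. The authors trimmed the reads with TrimGalore, mapped them to predicted mRNAs of the F. vesca v4.0.a2 annotation with RSEM and Bowtie2 in OmicsBox, and deposited expected counts per gene (34006) and per isoform (64597), which were whole numbers without normalization and were used as they stood. Libraries were strand-specific, and whether strand was used in counting is not given in the sources used here. Libraries were assigned by titles and column names.

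The filter kept genes that reached 0.5 CPM in 2 or more of the libraries compared. They were tested in R 4.3.3 with edgeR 4.0.16 (TMM factors, legacy quasi-likelihood F-tests, Benjamini-Hochberg adjustment over all genes tested, threshold 0.05). Interactions were terms in fits over 12 libraries. SE is the fold change divided by the root of F. P-values measure the spread between the replicates of 1 clone. DESeq2 1.42.0 served for alternatives, which also covered its size factors, no filter or a filter of 1 CPM in 3 libraries, the dispersion shared with leaves, the replicate number as a block, and each library left out. Sequences, gene lengths and genomic positions were not used here, so levels were not compared between genes by length.

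The members and gene lists were chosen with earlier results of these data known. Named genes were the study's candidates, up to 4 called members of each list with a mean of at least 1 CPM and the members not called in short lists, the 10 described interval genes largest in each direction (mean of at least 5 CPM), the 2 largest over all genes in each direction (at least 10 CPM), and 4 list members in each direction for each interaction. Other list members given by value were picked after their values were seen. Simulated counts on which the fit was tested held 18878 genes for this comparison: 85 of 100 genes changed by 1 log2 unit and 99 of 100 changed by 2 were called, with 16 of 18678 unchanged genes. No other genes were changed, whereas 58.9% of genes were called in the crowns. These rates were not tested for so broad a response.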

Additional observations from a re-analysis of the deposited data

Results flagged for a closer look

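The cold response of ‘NCGR1363’ crowns differed from that of ‘Alta’ crowns, by the interaction of genotype and cold, in 10 of the genes named in the text. The log2 interaction was above 0, a change further upward in ‘NCGR1363’, for HMG-CoA reductase FvH4_2g17060 at 5.70 (FDR 8.2e-05), ASMT FvH4_2g15840 at 6.87 (FDR 0.00039), hAT FvH4_2g12511 at 6.42 (FDR 0.0011), the basic blue protein gene FvH4_2g15050 at 3.53 (FDR 0.021), BYPASS1-like FvH4_2g13680 at 2.85 (FDR 1.8e-05) and NAC029 FvH4_2g16180 at 1.48 (FDR 0.029). It was below 0 for the quinone oxidoreductase homolog FvH4_2g18320 at -1.74 (FDR 0.016), SWEET1-like FvH4_2g14860 at -1.64 (FDR 0.0056), beta carbonic anhydrase 5 FvH4_2g11680 at -1.60 (FDR 0.033) and EXECUTER 1 FvH4_2g11660 at -0.996 (FDR 0.016). The direction of all 10 was the same when replicate 3 of cold-treated ‘Alta’ crowns was left out, and the sizes of ASMT and hAT depend on the prior count.

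From ‘NCGR1363’ leaves the crown response differed, by the interaction of tissue and cold, in 9 named genes. It lay above 0 for thioredoxin M-type FvH4_2g14900 at 2.92 (FDR 0.00074), extensin-3-like FvH4_2g14220 at 1.45 (FDR 0.0031), OXI1 FvH4_2g18040 at 1.24 (FDR 0.013), GT-2-like FvH4_2g13840 at 1.17 (FDR 0.00042) and BYPASS1-like FvH4_2g13680 at 0.72 (FDR 0.048), a call lost in 10 of 12 fits with one library left out and with no filter. It lay below 0 for IBH1-like FvH4_2g17750 at -4.35 (FDR 0.024), AFP2-like FvH4_2g18440 at -2.86 (FDR 0.018), ADH FvH4_2g14760 at -2.63 (FDR 0.00024) and the pentatricopeptide repeat gene FvH4_2g15270 at -1.56 (FDR 0.027). With one library left out the calls of FvH4_2g17750 and FvH4_2g15270 were lost in 6 and 7 of 12 fits.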

How the results depend on the processing

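The count of 11264 genes called for cold in ‘NCGR1363’ crowns was 11252 with DESeq2's size factors, 10294 with DESeq2, 11311 with no filter, 10894 with the stricter filter and 9747 to 11213 with one library left out, but 7014 with the dispersion shared with leaves. At 2-fold or more, 3583 genes became 2879 to 3759 over all these settings. The genotype by cold interaction (1281 genes, 74.4% of them higher in ‘NCGR1363’) gave 2888 genes with DESeq2 (1731 higher and 1157 lower) and 697 to 7148 with one library left out: 7148 without ‘Alta’ crown 42 d replicate 3 (4177 higher and 2971 lower), 2141 and 1797 without replicates 2 and 1 of that group, and 697 to 782 without any other library. The tissue by cold interaction (4144) ran from 2947 to 6737 with one library left out, the last without ‘NCGR1363’ leaf 42 d replicate 2, and the isoform calls (10162) from 7827 to 9031, with 14472 by DESeq2. Deviations of same-numbered crown libraries had an r of -0.008, 0.13 and 0.11, against -0.14 to 0.026 for differently numbered ones. Whether replicate numbers pair the libraries cannot be told from these values. With the number as a block, 11617 genes, 3615 at 2-fold or more, 947 genotype and 4452 tissue interactions and 7520 isoforms were called; NAC029 FvH4_2g16180 lost its genotype interaction (FDR 0.054), and 8 of 39 followed isoforms lost their call, none of those given by value in the text. The cause of these shifts was not tested. Of 116 named genes, 91 kept direction and side of the threshold with the shared dispersion and 24 lost the call, as against 109 and 5 with DESeq2, and 14 lost it in at least 1 fit with a library left out.

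Among the named genes, direction turned only in some that were not called. Cyclin-C1-2-like FvH4_2g18390 was at 0.0016 with size factors, 0.0015 with DESeq2 and 0.0068 with the shared dispersion, and lysine histidine transporter-like FvH4_2g16050 at 0.021 with the block. With one library left out the log2 fold change ran from -0.044 to 0.078 for FvH4_2g18390, -0.37 to 0.34 for FvH4_2g16050, -0.14 to 0.40 and -0.37 to 0.58 for laccases FvH4_2g12570 and FvH4_2g12590, -0.075 to 0.039 for BYPASS1-like FvH4_2g13680, -0.19 to 0.066 for CTR1 FvH4_2g15800, -0.32 to 0.20 for the ascorbate oxidase homolog FvH4_2g16000 and -0.14 to 0.14 for ribosomal S8-like FvH4_2g18130.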
